A study of Mus musculus with 15 samples.

Results

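Glycolysis genes were compared across 3 states of mouse pluripotent cells by how many bases of each gene carried 2 histone marks. The members were 10 genes out of 22350 protein-coding genes: the hexokinases Hk2 and Hk1, the phosphofructokinases Pfkp and Pfkl, aldolase Aldoa, enolase Eno1, lactate dehydrogenase Ldha, the glucose transporters Slc2a1 and Slc2a3, and the pyruvate dehydrogenase kinase Pdk1. They were chosen by name around Hk2, and Hk2 itself was selected on its H3K27ac values in these same lists, so its fall from ESCs is given as a description. Each gene was read over its annotated span (GENCODE M1, build mm9) widened by 10 kb on each side.

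ChIP-seq, in which DNA bound to a given histone mark is pulled down and sequenced, was performed for H3K27ac and H3K4me1 in embryonic stem cells (ESCs) and in 2 kinds of expanded potential stem cells, D-EPSCs and L-EPSCs. ESCs were the J1 line of strain 129SV, grown in medium with 15% FBS, LIF at 1000 units/mL, CHIR99021 (3 µM) and PD0325901 (1 µM), on feeder cells or gelatin. D-EPSCs and L-EPSCs were converted from ESCs and were kept without feeders before ChIP. D-EPSC medium held 5% KSR, LIF, CHIR99021 (3 µM), dimethindene maleate (2 µM) and minocycline hydrochloride (2 µM). L-EPSC medium held 20% KSR, LIF, CHIR99021 (3 µM), PD0325901 (1 µM), A-419259 (0.3 µM), XAV939 (5 µM), JNK inhibitor VIII (4 µM) and SB203580 (10 µM). LIF and CHIR99021 were thus shared by the 3 states, and no genotype differed by label. There were 2 samples per mark and state and 1 input per state, 15 in all, but 1 broad peak list per mark and state, 6 lists in all. No comparison therefore had a replicate check or a test, no value has an error, and read depth is unknown from peak positions.

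The H3K27ac lists differed in length, with 107.4 Mb covered in ESCs but 44.4 Mb in D-EPSCs, while L-EPSCs had 34.3 Mb. The H3K4me1 lists were closer, with 221.1 Mb, 187.5 Mb and 173.1 Mb. Each count below is set beside the share of all protein-coding genes that met the same criterion. Of 5 pluripotency markers, 4 (Pou5f1, Sox2, Nanog and Zfp42) had a start-site H3K27ac peak in each state and Esrrb had none. None of 6 fibroblast markers, which would mark feeder cells, had one in any state. The H3K27ac bases in their windows summed to 13.6 kb in ESCs against 4.31 kb for D-EPSCs and 2.93 kb for L-EPSCs, with single markers between 0 and 11.1 kb in ESCs, up to 1.93 kb in the D-EPSC list and up to 1.89 kb in that of L-EPSCs. Thy1 and Twist1 were at 0 in every list. The part of feeder cells in the members' lower EPSC values was not tested. Peak coverage cannot tell a mark lost from all cells from a mark lost from some of them.

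Glycolysis splits glucose into pyruvate. Glucose enters through facilitative transporters such as Slc2a1 (GLUT1) and Slc2a3 (GLUT3), hexokinases trap it by phosphorylation, phosphofructokinase commits it to breakdown, and Aldoa and Eno1 act farther down. Ldha turns pyruvate into lactate, and Pdk1 holds pyruvate back from oxidation in the mitochondria by phosphorylating pyruvate dehydrogenase. Mouse pluripotent cells are known for high glycolytic flux, and Hk2 is the inducible hexokinase of proliferating cells while Hk1 is the widely expressed form. H3K27ac marks active enhancers and promoters, and H3K4me1 marks enhancers, active or not, and the flanks of promoters.

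The promoters that bear on the pattern are shown first, since the peaks at Hk2, Ldha and Pdk1 were placed differently over them. The sequences are RefSeq promoters (GRCm38.p6) placed on mm9 by exact match, 5′ to 3′ on the gene's strand and ending at the base before the start site. Capitals mark ACGTG or its reverse complement CACGT, a form of the core of the hypoxia response element. Hypoxia factors are known to act on glycolysis genes through that element. No other form of the core was searched.
Hk2, chr6:82724449-82724698, minus strand: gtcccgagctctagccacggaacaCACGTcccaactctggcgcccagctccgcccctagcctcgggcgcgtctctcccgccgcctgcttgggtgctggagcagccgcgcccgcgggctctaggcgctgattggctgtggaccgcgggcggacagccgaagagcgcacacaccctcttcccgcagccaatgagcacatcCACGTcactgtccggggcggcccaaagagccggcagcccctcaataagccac
Ldha, chr7:54100924-54101173, plus strand: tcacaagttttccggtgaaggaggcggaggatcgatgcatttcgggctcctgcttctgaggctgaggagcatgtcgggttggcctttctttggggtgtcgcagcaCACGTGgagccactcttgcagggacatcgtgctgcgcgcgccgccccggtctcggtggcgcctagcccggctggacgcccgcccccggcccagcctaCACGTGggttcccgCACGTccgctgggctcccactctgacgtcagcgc
Pdk1, chr2:71711031-71711280, plus strand: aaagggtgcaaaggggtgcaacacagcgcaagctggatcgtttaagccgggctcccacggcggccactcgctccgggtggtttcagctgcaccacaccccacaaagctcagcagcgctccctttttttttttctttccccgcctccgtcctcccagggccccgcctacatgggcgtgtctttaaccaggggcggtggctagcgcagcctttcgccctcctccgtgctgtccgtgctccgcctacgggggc
The Hk2 stretch held 2 separate matches and the Pdk1 stretch held 0. The Ldha stretch held 3, and 2 of them lay in the longer letters CACGTG (E-box), which contain both strands' match. RefSeq promoters of 300 bases (250 before the start and 50 after it) were found for 9 members, 16 in all, and none was found for Slc2a3. ACGTG was present in 6 of these 16 (37.5%), at Hk2, Hk1, Ldha, Aldoa (2 overlapping promoters) and Slc2a1, and in 19.62% of all 32851 RefSeq promoters. CACGTG was present in 1 of 16 (6.25%) against 7.15% of all, and the core promoter letters TATAAA were present in 1 of 16 (6.25%) against 13.62%. These shares were not matched for base composition. The members' promoters ran from 40.33% GC (the second promoter of Pdk1, not printed) to 69% (Eno1). Those with ACGTG ran from 63.33% (Hk1) to 67.33% (Hk2 and Ldha). The first Pdk1 promoter, whose upstream bases are printed above, was at 66%. The median of all RefSeq promoters was 52.67%. A match is a description of letters and not of a bound site.

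The 300 bases of the Hk2 promoter lay under no H3K27ac peak in any state. In ESCs, H3K27ac peaks flanked it on both sides, a 1134-bp peak upstream (chr6:82724760-82725893) and a 2202-bp peak over the first exons and introns (chr6:82721869-82724070). The upstream peak had no counterpart in D-EPSCs or L-EPSCs. The downstream peak was still covered over 1265 bp in D-EPSCs, whereas L-EPSCs had 732 bp. H3K4me1 covered 0 of the 300 bases in ESCs against 0 for D-EPSCs and all 300 for L-EPSCs, so the L-EPSC list placed H3K4me1 across the start where the other lists left a gap.

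At Ldha the first promoter was covered by H3K27ac over 300 bases in ESCs but 230 in D-EPSCs, while L-EPSCs had 0. H3K4me1 ran the other way there, with 0 bases in ESCs, 300 in the D-EPSC list and 300 in that of L-EPSCs. At Pdk1 the first promoter had 0 bases of H3K27ac in ESCs against 300 for D-EPSCs and 300 for L-EPSCs, and no H3K4me1 in any state. The promoters of Slc2a1, Pfkl and Eno1 (3 promoters) were under H3K27ac over all 300 bases in every state. The Pfkp promoter had 0 bases of H3K27ac in every state, and its H3K4me1 was 0 in ESCs against 0 for D-EPSCs and 300 for L-EPSCs, as at Hk2.

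Hk2 (ENSMUSG00000000628, chr6:82675019-82724448, minus strand) carried its ESC H3K27ac in separate peaks, the widest of 6041 bp. H3K27ac covered 38.0 kb of its 69.43-kb window in ESCs but 5.67 kb in D-EPSCs, while L-EPSCs had 16.1 kb. These are 54.7%, 8.17% and 23.1% of the window, in 16, 5 and 5 peaks. Among all protein-coding genes Hk2 ranked 308 by covered bases in ESCs, 1958 in the D-EPSC list and 209 in that of L-EPSCs. Its coverage was thus 6.70-fold lower in D-EPSCs than in ESCs and 2.37-fold lower in L-EPSCs, and the L-EPSC value was 2.83-fold that of D-EPSCs. H3K4me1 at Hk2 covered 52.3 kb in ESCs against 33.1 kb for D-EPSCs and 37.7 kb for L-EPSCs, a smaller change than that of H3K27ac in both EPSCs.

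**Figure D1:**
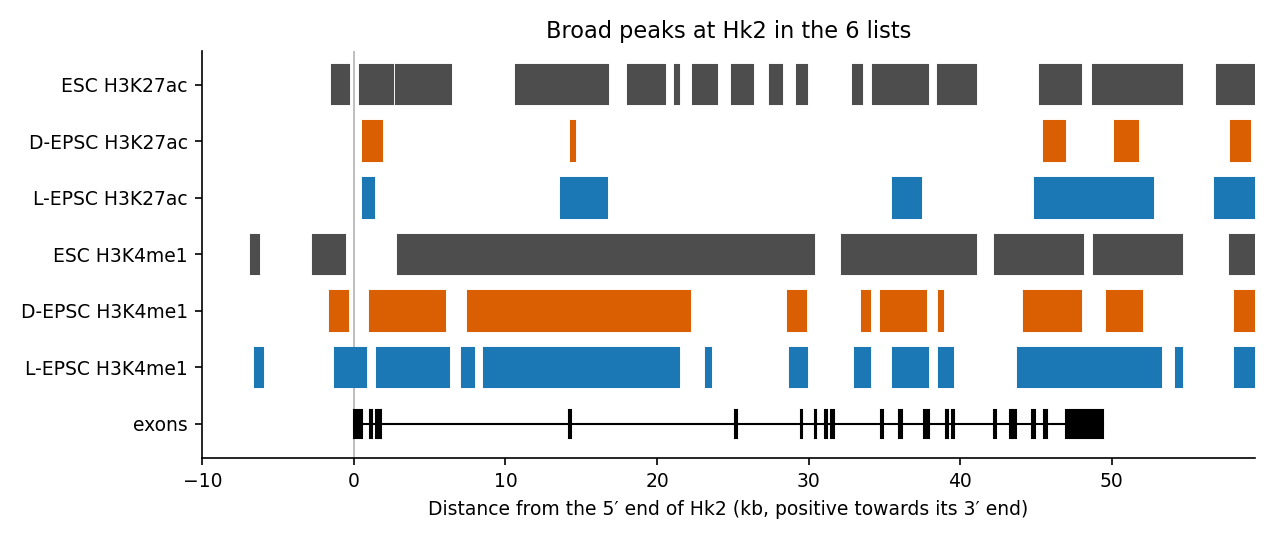
Peaks of the 6 lists at Hk2, drawn as filled bars against the distance from the 5′ end of the gene (x axis, kb), with exons in the lowest row. ESC H3K27ac bars (16 peaks, 38.0 kb) run along most of the gene, D-EPSC bars are 5 short peaks (5.67 kb), and L-EPSC bars (16.1 kb) lie mostly towards the 3′ end, with a further stretch in the 5′ part of the gene.

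The acetylated stretches at Hk2 joined into 15 regions. Of these, 10 were present in ESCs only, 4 in all 3 states and 1 in ESCs and L-EPSCs. None was found in an EPSC state alone. Joined in the same way, 53.6% of the 70360 H3K27ac regions of the genome were present in ESCs only and 21.3% in all 3 states. The widest, chr6:82669786-82679537 at the 3′ end of the gene, held 8648 bp of H3K27ac in ESCs against 2833 bp for D-EPSCs and 7819 bp for L-EPSCs. A second, at chr6:82707710-82713750 around 13.7 kb into the gene, held 6041 bp, 309 bp and 3039 bp. The third, at chr6:82686588-82690187 over coding exons and introns, held 3600 bp in ESCs but 0 in D-EPSCs, while L-EPSCs had 1848 bp. These 3 regions held most of the acetylation that L-EPSCs had and D-EPSCs lacked. In contrast, an intronic region 4.6 kb from the start (chr6:82718015-82721672) had 3658 bp in ESCs and none in either EPSC, although H3K4me1 still covered 3251 bp of it in D-EPSCs, whereas L-EPSCs had 3470 bp.

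The middle 300 bases of 3 of these ESC peaks are printed on the plus strand of mm9, as examples of a peak kept in part in L-EPSCs, a peak lost in both EPSCs with its H3K4me1 retained, and the peak with most matches to TTCNNNGAA. TTCNNNGAA is the letter pattern of STAT sites, through which LIF is known to signal, and capitals mark it.
Hk2 exons and introns, chr6:82688238-82688537, kept in part in L-EPSCs: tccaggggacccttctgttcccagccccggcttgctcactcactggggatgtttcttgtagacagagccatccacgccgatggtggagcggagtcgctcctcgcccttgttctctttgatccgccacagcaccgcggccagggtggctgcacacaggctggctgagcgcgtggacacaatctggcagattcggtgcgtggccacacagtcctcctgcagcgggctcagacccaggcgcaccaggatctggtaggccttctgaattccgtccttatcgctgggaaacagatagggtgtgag
Hk2 intron, chr6:82719694-82719993, ESCs only: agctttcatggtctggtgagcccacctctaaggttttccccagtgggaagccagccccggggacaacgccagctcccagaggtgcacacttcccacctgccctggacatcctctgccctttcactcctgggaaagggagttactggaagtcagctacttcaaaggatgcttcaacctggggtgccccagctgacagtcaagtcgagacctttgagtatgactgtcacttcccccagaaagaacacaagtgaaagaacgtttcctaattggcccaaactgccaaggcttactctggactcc
Hk2 exon and intron, chr6:82694714-82695013, ESCs only: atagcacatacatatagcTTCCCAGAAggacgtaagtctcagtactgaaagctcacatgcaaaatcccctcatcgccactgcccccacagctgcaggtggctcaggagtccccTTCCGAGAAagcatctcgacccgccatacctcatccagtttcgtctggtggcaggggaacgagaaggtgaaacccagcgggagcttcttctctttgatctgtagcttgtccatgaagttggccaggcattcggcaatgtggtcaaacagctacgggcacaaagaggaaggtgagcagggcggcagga
Matches to TTCNNNGAA, a pattern that reads the same on both strands, lay in 2 of 15 Hk2 peak centres (13.33%) and in 9.144% of the centres of 58040 ESC H3K27ac peaks. Both Hk2 peaks with a match were present in ESCs only, as were 10 of the 15 joined Hk2 regions. The joined regions are not the same set as the 15 peaks searched. An ESC-only peak of 292 bp is among the regions but was too short for a centre of 300 bases. A link between matches and lost acetylation was not tested. ACGTG lay in 1 of the 15 (6.667%), against 15.43% of all centres. The 16 promoters of the members held no TTCNNNGAA, against 8.298% of all RefSeq promoters.

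The EPSC acetylation at Hk2 lay almost wholly inside the ESC peaks. All (100%) of the D-EPSC H3K27ac bases and 92.4% of the L-EPSC bases were acetylated in ESCs too. Over the genome 34.8 Mb of 44.4 Mb in D-EPSCs and 28.7 Mb of 34.3 Mb in L-EPSCs were. Among the members this share ran from 83.0% (Pdk1) to 100% in D-EPSCs and from 82.5% (Aldoa) to 100% in L-EPSCs. D-EPSCs kept 14.9% of the ESC bases and L-EPSCs kept 39.0%, against 32.4% and 26.7% over the genome. The order of the EPSC states at Hk2 was thus the opposite of that over the genome. Hk1 (14.9% in D-EPSCs and 18.1% in L-EPSCs), Pfkp (36.9% and 37.5%) and Ldha (5.01% and 8.71%) shared the order of Hk2. The other members had the order of the genome.

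What D-EPSCs and L-EPSCs kept also differed by place. Within 1 kb of an annotated transcript start, D-EPSCs kept 45.5% of the ESC acetylation at Hk2 and farther away 12.5%. L-EPSCs kept 26.3% near the starts and 40.0% farther away. Over the genome both kept more near starts than away from them, with 57.3% and 29.9% in D-EPSCs and 46.3% and 24.7% in L-EPSCs. In L-EPSCs, Hk1 and Ldha shared the order of Hk2, with 0% near starts at both and 20.5% and 14.6% farther away, and the other 7 members followed the genome.

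Much of what lost acetylation carried H3K4me1 in the EPSCs. The share in an EPSC was counted whether or not ESCs had H3K4me1 at the same bases. D-EPSCs lacked 32.3 kb of the ESC H3K27ac at Hk2. Of these bases 93.0% had carried H3K4me1 in ESCs and 61.1% carried it in D-EPSCs, against 80.6% and 60.9% of all such bases of the genome. L-EPSCs lacked 23.2 kb, of which 91.8% had H3K4me1 in ESCs and 64.7% in L-EPSCs, against 79.9% and 57.4%. The Hk2 values in EPSCs were therefore close to those of the genome in D-EPSCs and above them in L-EPSCs. Among the members the share of lost bases with H3K4me1 in the EPSC ran from 34.0% (Aldoa) to 99.8% (Pdk1) in D-EPSCs and from 35.1% (Aldoa) to 94.0% (Pfkp) in L-EPSCs.

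Hk1 (chr10:61731603-61842656, minus strand) followed Hk2 more closely in D-EPSCs than in L-EPSCs. Its H3K27ac covered 20.7 kb in ESCs, 3.48 kb in the D-EPSC list and 3.89 kb in that of L-EPSCs, which is 5.96-fold lower in D-EPSCs and 5.32-fold lower in L-EPSCs. Of its 13 acetylated regions, 9 were present in ESCs only. Unlike Hk2, Hk1 showed no H3K27ac peak within 1 kb of its 5′ end in any state, nor at its second RefSeq start, where H3K4me1 was present in each state. Both hexokinases thus had lower coverage in D-EPSCs, and in L-EPSCs Hk2 kept 39.0% of its ESC bases where Hk1 kept 18.1%.

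The phosphofructokinases moved the same way. Pfkl (liver type, chr10:77449692-77472828, minus strand) had 9.47 kb of H3K27ac in ESCs but 1.60 kb in D-EPSCs, while L-EPSCs had 0.507 kb. Only the region at its start, chr10:77468214-77473518, was left in the EPSCs, with 5305 bp in ESCs against 1604 bp for D-EPSCs and 507 bp for L-EPSCs. This window also holds the start of 1810043G02Rik. Pfkp (platelet type, chr13:6579014-6648023, minus strand) had 12.2 kb, 4.49 kb and 4.61 kb, so that its D-EPSC and L-EPSC values lay close together. Its remaining acetylation lay mostly in 1 region around 11.3 kb into the gene (chr13:6634345-6639019), with 4629 bp in ESCs but 3172 bp in D-EPSCs, while L-EPSCs had 4033 bp.

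Ldha (chr7:54096845-54110997, plus strand) showed the lowest share kept in D-EPSCs among the members. H3K27ac covered 12.5 kb in ESCs, 0.627 kb in the D-EPSC list and 1.09 kb in that of L-EPSCs, 20.0-fold and 11.5-fold lower. No acetylated region was shared by the 3 states. The region over the 5′ end (chr7:54092472-54099078) had 6607 bp in ESCs but 0 in D-EPSCs, while L-EPSCs had 1090 bp. The region over the downstream promoter printed above (chr7:54099715-54102601) had 2887 bp, 627 bp and 0, so each EPSC state kept a piece that the other lacked. The window also holds the starts of Ldhc and Gm5331. H3K4me1 at Ldha covered 21.1 kb in ESCs against 14.0 kb for D-EPSCs and 10.2 kb for L-EPSCs.

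In D-EPSCs the transporters kept more of their ESC acetylation than Hk2 did, but in L-EPSCs Slc2a3 kept 33.6% and Slc2a1 39.0%, against 39.0% at Hk2. Slc2a3 (chr6:122677827-122751658, minus strand) had the most H3K27ac of the members in each state, with 54.2 kb in ESCs but 34.7 kb in D-EPSCs, while L-EPSCs had 18.3 kb. It ranked 123, 39 and 151 among all genes. One region of 21384 bp (chr6:122706089-122727472), intronic in the longest transcript, held 21335 bp, 18378 bp and 14108 bp. The nearest gene, Nanog, a pluripotency factor, lies 13175 bp from the span of Slc2a3. Slc2a1 (chr4:118781316-118809935, plus strand) had 20.9 kb in ESCs, 11.2 kb in the D-EPSC list and 8.14 kb in that of L-EPSCs, and the region over its start (chr4:118774124-118782041) kept 4962 bp of 7918 bp in D-EPSCs, whereas L-EPSCs had 2641 bp. For both transporters the order was ESC, D-EPSC, L-EPSC from most to least, with D-EPSC over L-EPSC where Hk2 had L-EPSC over D-EPSC.

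**Figure D2:**
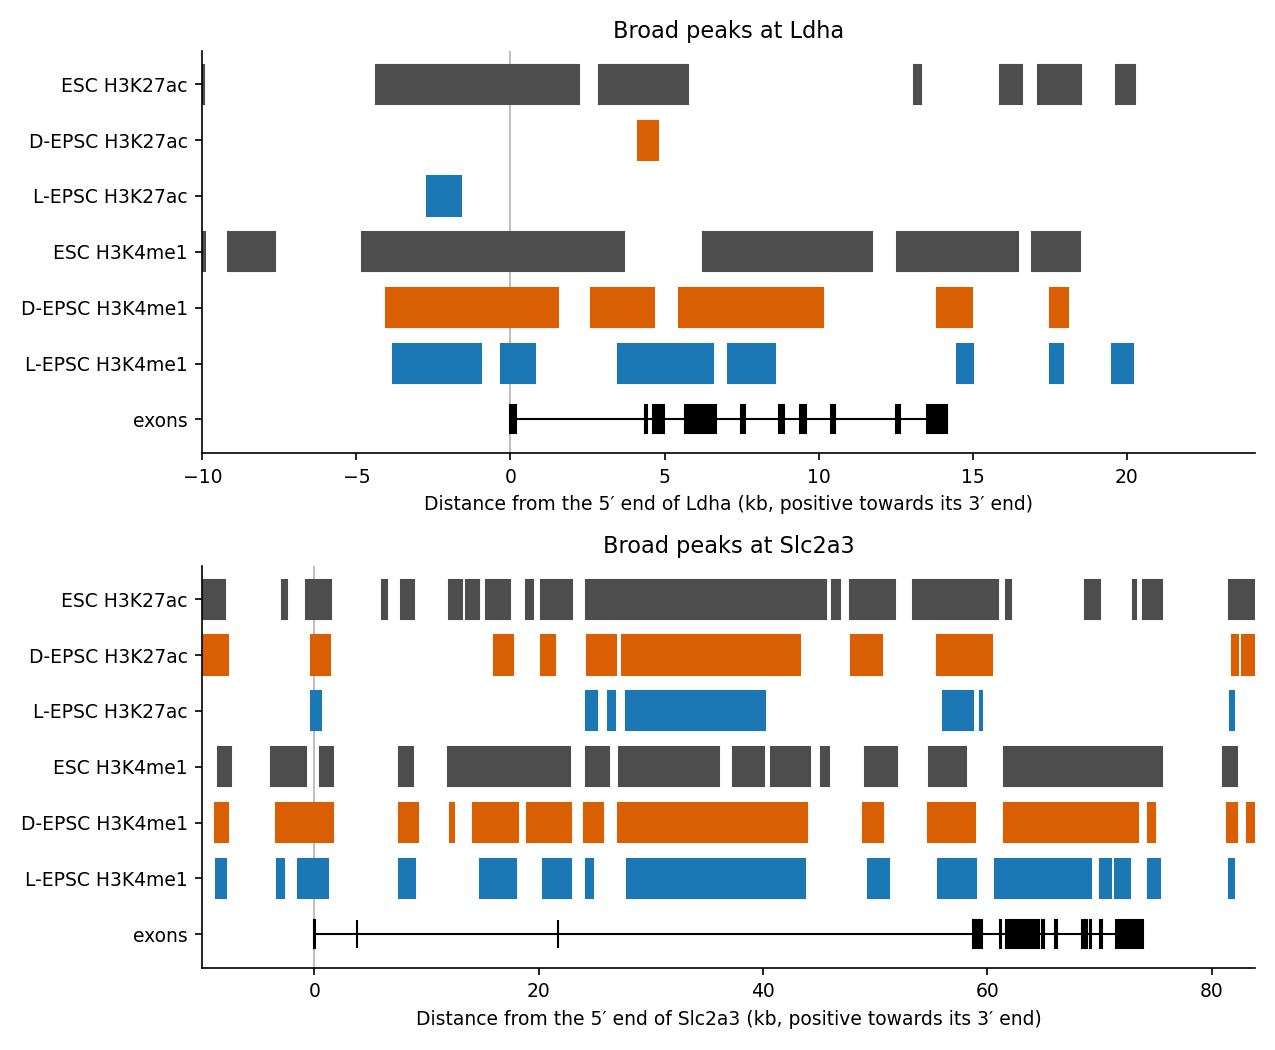
Peaks of the 6 lists at Ldha (upper panel) and Slc2a3 (lower panel), drawn as filled bars against the distance from the 5′ end of the gene (x axis, kb), with exons in the lowest row of each panel. At Ldha a single short H3K27ac bar is left in each EPSC state, at different places, while at Slc2a3 the widest ESC bar (21335 bp) is kept in large part in both (18378 and 14108 bp).

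Aldoa, Eno1 and Pdk1 also kept most of their acetylation in D-EPSCs. Aldoa (chr7:133938748-133944265, minus strand) had 6.31 kb of H3K27ac in ESCs against 5.13 kb for D-EPSCs and 3.89 kb for L-EPSCs, and all 3 of its regions were present in each state. Its window holds the start of Ppp4c. Eno1 (chr4:149610830-149622988, plus strand) had 12.8 kb, 8.84 kb and 5.19 kb. Pdk1 (chr2:71711281-71741915, plus strand) had 15.7 kb, 13.9 kb and 7.28 kb. The domain at the start of Pdk1 (chr2:71698230-71713116) had 13014 bp in ESCs against 14137 bp for D-EPSCs and 6819 bp for L-EPSCs. Pdk1 also had the single D-EPSC-only H3K27ac region of the members, an intronic stretch of 418 bp at chr2:71736127-71736544.

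**Figure D3:**
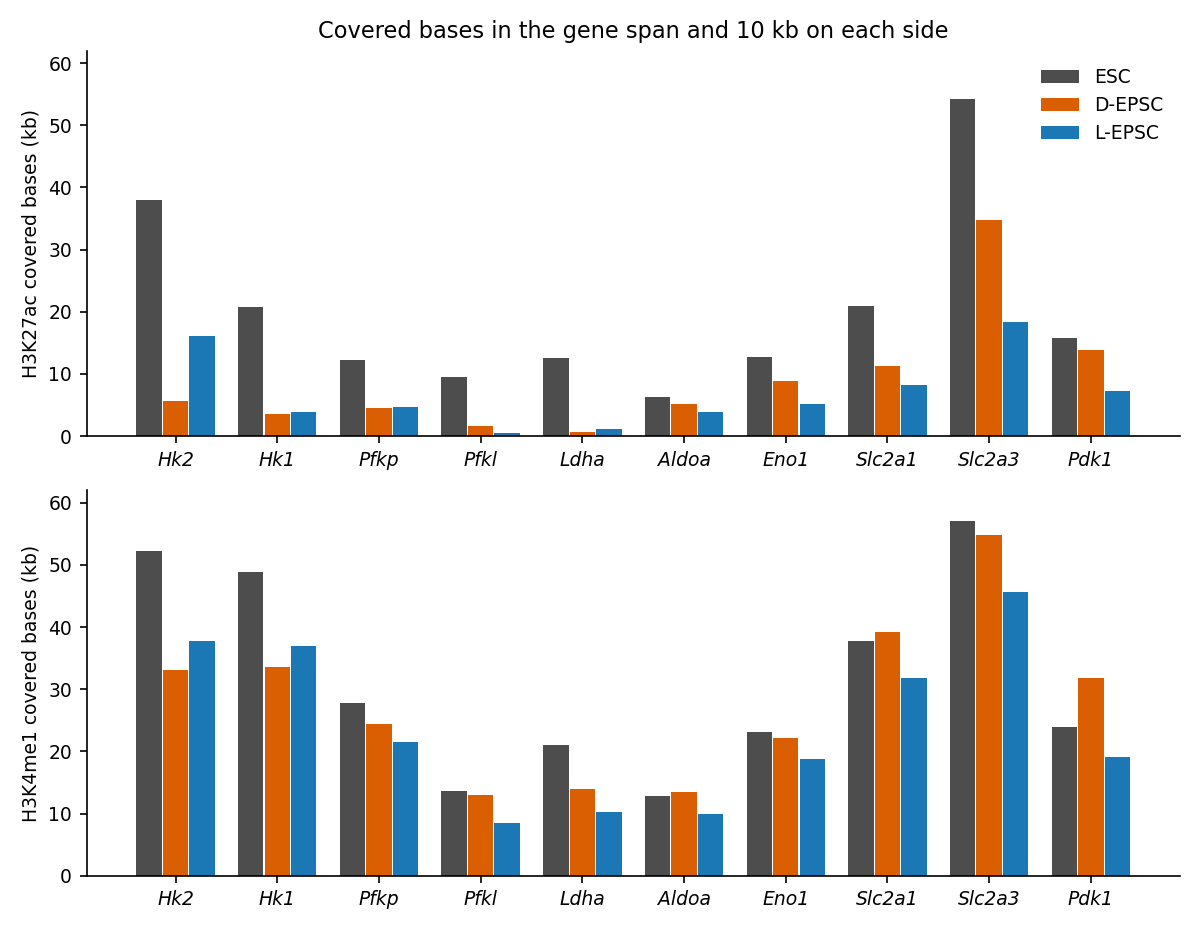
Bases covered by H3K27ac (upper panel) and H3K4me1 (lower panel) at the 10 members in ESCs, D-EPSCs and L-EPSCs (bars, kb, 1 list each, no error). For H3K27ac the D-EPSC bar lies below the L-EPSC bar at Hk2 (5.67 against 16.1 kb) and above it at Slc2a3 (34.7 against 18.3 kb), and the H3K4me1 bars differ less between states.

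Set against ESCs, all 10 members had less H3K27ac in D-EPSCs, and 5 were at least 2-fold lower: Hk2, Hk1, Pfkp, Pfkl and Ldha. Among 12059 genes with at least 1 kb in either list, 87.4% had less and 61.0% were at least 2-fold lower. The members' log2 ratios ran from -4.32 (Ldha) to -0.18 (Pdk1), with a median of -1.17 against -1.33 for all genes tested. Hk2 (-2.74) was not set apart from Hk1 (-2.57) and Pfkl (-2.56). The Hk2 ratio was above that of 18.7% of the genes tested, and those of Aldoa and Pdk1 above 81.7% and 84.2%. In D-EPSCs the members therefore fell into 5 with Hk2 and 5 that kept more (Aldoa, Eno1, Slc2a1, Slc2a3 and Pdk1), with Pfkp (2.71-fold) and Slc2a1 (1.86-fold) next to the 2-fold line. With 10 kb flanks and in D-EPSCs, the contrast of Hk2 with the other enzymes thus held for Aldoa, Eno1 and Pdk1. By the 2-fold call it did not hold for Hk1, Pfkp, Pfkl and Ldha. With 25 kb flanks Aldoa (-1.01), Eno1 (-1.28) and Slc2a1 (-1.21) were also at least 2-fold lower in D-EPSCs, and Hk2 was at -2.12.

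In L-EPSCs 9 of the 10 members were at least 2-fold lower than in ESCs, all but Aldoa (1.62-fold), and 79.0% of 11684 genes were. All 10 had less than in ESCs, as did 94.8% of these genes. The members' median log2 ratio was -1.38 and that of all genes -2.02. Hk2 (-1.24) lay between Eno1 (-1.30) and Pdk1 (-1.11), above 72.6% of genes. The lowest were Pfkl (-4.22) and Ldha (-3.52). Neither count of members, 5 and 9 of 10, lay far from the share of all genes. The D-EPSC and L-EPSC comparisons share the ESC list.

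Between the EPSC states, Hk2 was the 1 member of 10 at least 2-fold higher in L-EPSCs than in D-EPSCs (2.83-fold), where 5.84% of 9447 genes were. Pfkl was the 1 member at least 2-fold lower (-1.66), where 33.8% of genes were. The Hk2 ratio was above that of 96.1% of genes. Among the 308 genes with as much ESC H3K27ac as Hk2 or more, Hk2 included, 83.4% were at least 2-fold lower in D-EPSCs and 91.9% in L-EPSCs, and 10 (3.25%) were at least 2-fold higher in L-EPSCs than in D-EPSCs.

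**Figure D4:**
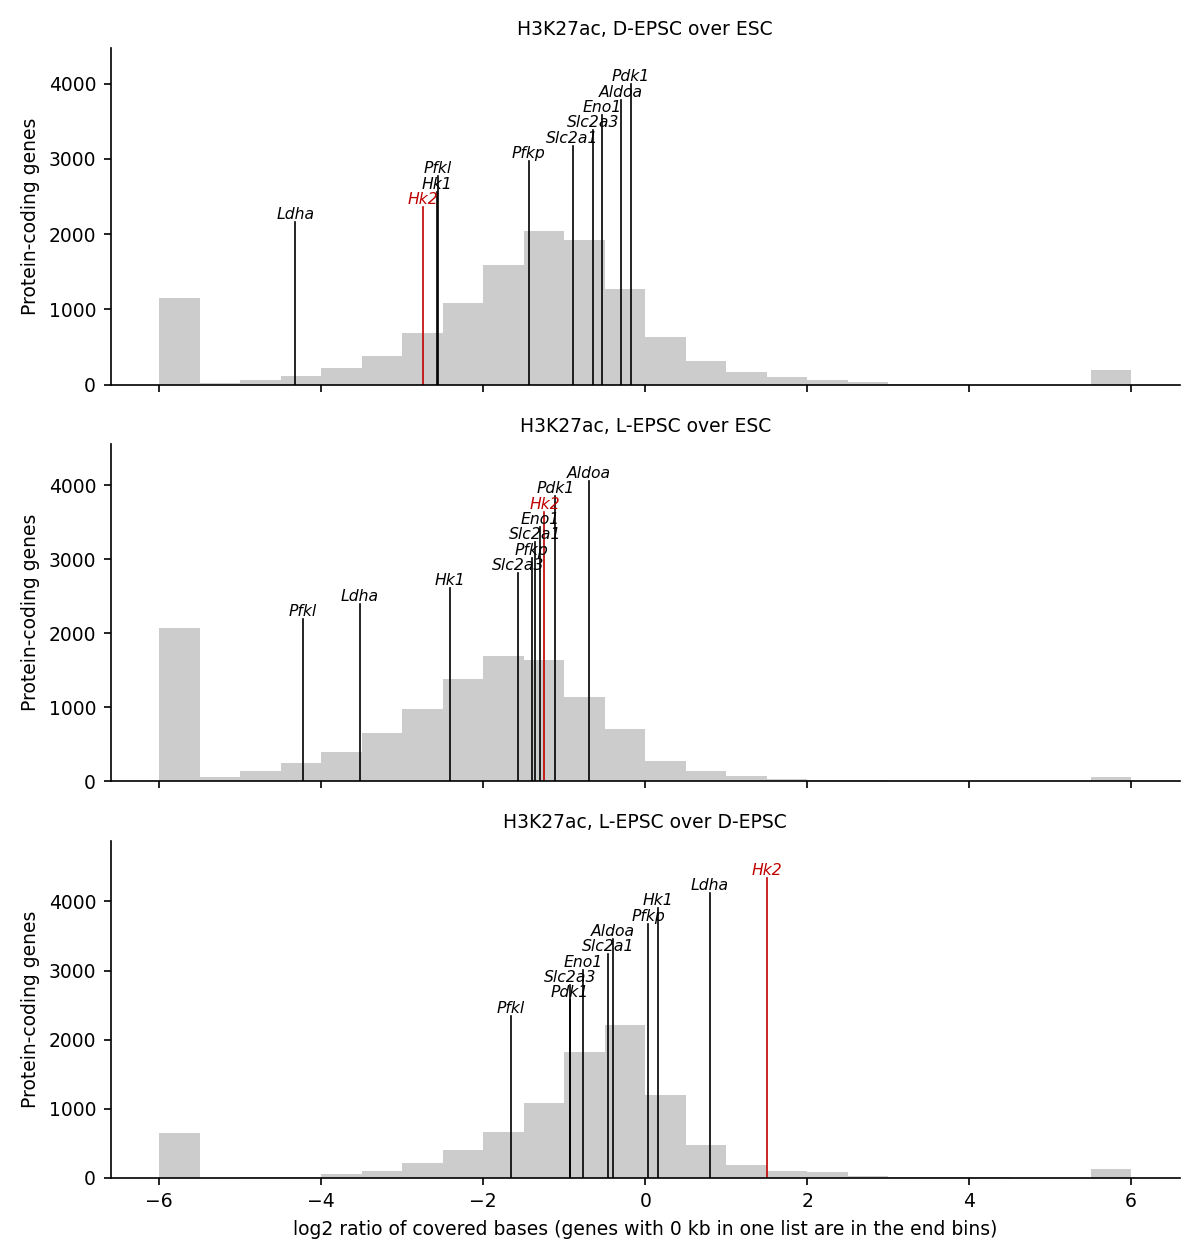
Log2 ratios of H3K27ac covered bases (x axis) for all protein-coding genes tested (grey bars, number of genes per bin of 0.5) in 3 comparisons, with the members as labelled lines and Hk2 in red. Hk2 lies among Hk1 and Pfkl in D-EPSCs over ESCs (-2.74, -2.57 and -2.56), below Pdk1 and Aldoa only in L-EPSCs over ESCs (-1.24, against -1.11 and -0.70) and highest of the members in L-EPSCs over D-EPSCs (2.83-fold).

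With lists of equal covered bases the falls from ESCs at Hk2 were smaller. When each H3K27ac list was trimmed to its widest peaks up to the 34.3 Mb of the L-EPSC list, Hk2 had 14.4 kb in ESCs but 5.36 kb in D-EPSCs, while L-EPSCs had 16.1 kb. Its fall in D-EPSCs remained, at a log2 ratio of -1.43, and its fall in L-EPSCs did not (0.15). Under this trimming 3 members were at least 2-fold lower in D-EPSCs (Hk2, Pfkl and Ldha), where 15.4% of 8032 genes were, and 2 in L-EPSCs (Pfkl and Ldha), where 17.8% of 7109 genes were. L-EPSC coverage of Hk2 was still 2.99-fold that of D-EPSCs, where 15.3% of 8680 genes were at least 2-fold higher. Directions turned at other members: Slc2a1 was at a log2 ratio of 0.039 in L-EPSCs, and in D-EPSCs Slc2a1, Slc2a3 and Pdk1 were 1.41-fold, 1.09-fold and 1.63-fold above ESCs. The trimming kept only ESC peaks of 5131 bp or wider and left Hk1, Pfkp and Aldoa with none, so no ratio over ESCs exists for them. Their order turned too, since Hk1 still had 2.29 kb in the D-EPSC list and 3.89 kb in that of L-EPSCs, Pfkp had 3.69 and 4.61 kb, and Aldoa had 4.61 and 3.89 kb. Genes at least 2-fold higher than in ESCs, those with no ESC base included, were 66.2% of all in D-EPSCs and 61.6% in L-EPSCs under this trimming, and 3 members in each, these 3.

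**Figure D5:**
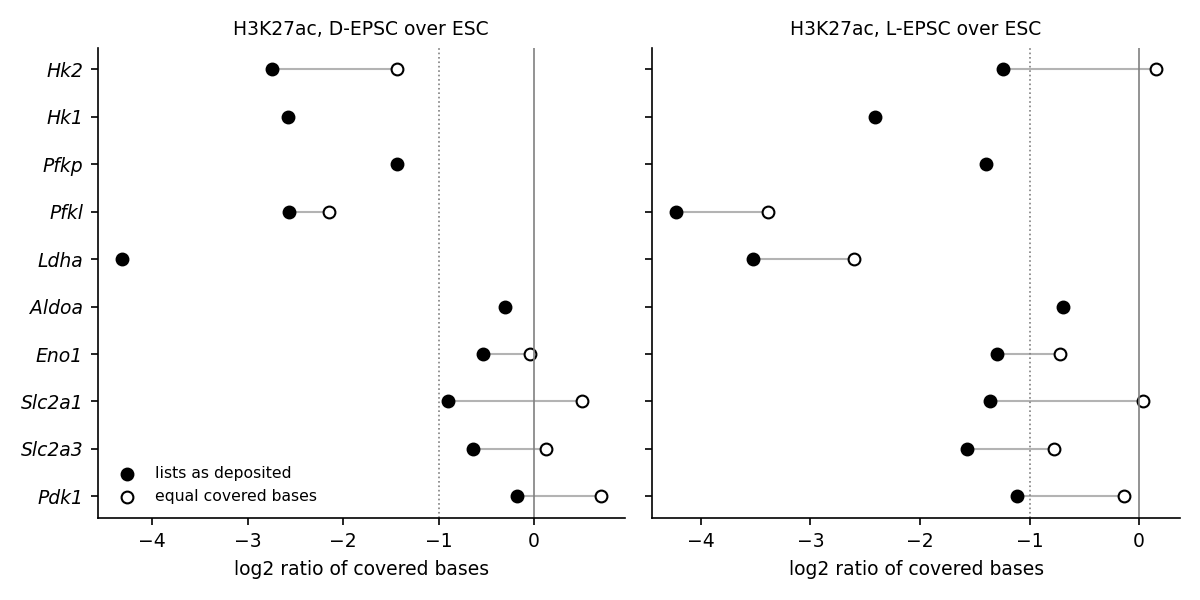
Log2 ratios of H3K27ac covered bases over ESCs (x axis) for each member (rows), with the lists as deposited (filled points) and with lists trimmed to equal covered bases (open points), and dotted lines at 2-fold lower. An open point is missing where a trimmed list had no base at the gene. Hk2 stays past the dotted line in D-EPSCs (-1.43) and moves to 0.15 in L-EPSCs, while Pfkl stays past it in both (-2.15 and -3.39).

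At the 5′ ends of the genes, within 1 kb, H3K27ac peaks were present at 9 of 10 members in ESCs (all but Hk1), where 35.7% of all genes had one. In D-EPSCs 7 members had one (35.3% of all genes), and in L-EPSCs the same 7 did (28.8%). Hk2 was among them in each state, and Pfkp and Ldha were the members that had a peak in ESCs and none in either EPSC. Within 500 bp the counts were 9 in ESCs and 6 in each EPSC. At that width Hk2 had a peak in ESCs only, since its nearest EPSC peaks began 0.586 kb (D-EPSC) and 0.571 kb (L-EPSC) into the gene. At the RefSeq starts of Ldha a D-EPSC peak was present within 1 kb. H3K4me1 peaks were present at 9 members in each state, all but Hk1, where 57.5%, 67.1% and 68.0% of all genes had one in ESCs, D-EPSCs and L-EPSCs. The annotated 5′ ends of Hk1, Ldha and Slc2a3 belong to long transcripts and lie upstream of other starts of these genes.

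H3K4me1 coverage of the whole windows changed little at the members. None of 10 was at least 2-fold lower in D-EPSCs than in ESCs, where 5.53% of 17332 genes were. One, Ldha (2.07-fold), was so in L-EPSCs, where 11.2% of 17464 genes were. Counted by number of peaks, Ldha was not lower in L-EPSCs (log2 ratio 0.22). The medians of the members were -0.06 in D-EPSCs and -0.37 in L-EPSCs, against -0.10 and -0.29 for all genes tested. Hk2 had the lowest ratio of the members in D-EPSCs (-0.66), followed by Ldha (-0.59) and Hk1 (-0.54). That place depended on the measure: with 25 kb flanks Ldha (-0.79) was below Hk2 (-0.51), and by number of peaks Hk2 was above ESCs, with 7 peaks in ESCs, 10 in the D-EPSC list (log2 ratio 0.51) and 13 in that of L-EPSCs (0.89). By covered bases, the 3 members lowest in H3K4me1 in D-EPSCs were thus among the 4 lowest in H3K27ac there. Of 78 joined H3K4me1 regions at the members, 55 were present in all 3 states and 10 in ESCs only, whereas of 94 H3K27ac regions 24 were in all 3 and 57 in ESCs only. Of 124744 joined H3K4me1 regions of the genome, 52.7% were in all 3 states and 14.5% in ESCs only. For H3K27ac these shares were 21.3% and 53.6%. The members' regions thus differed between the marks in the same direction as those of the genome. The sizes of these differences were not compared.

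Genes around the members in the pathway were read in the same way, from lists chosen by function. Of 17 other glycolytic enzymes 15 had enough H3K27ac to be compared, and 11 were at least 2-fold lower in D-EPSCs and 14 in L-EPSCs, with medians of -1.74 and -2.37. Among those lower in both, Tpi1 (triosephosphate isomerase) had 10.7 kb in ESCs, 4.61 kb in the D-EPSC list and 2.07 kb in that of L-EPSCs. Pfkm, the muscle phosphofructokinase, had 8.49, 4.03 and 2.06 kb. Pgam1, a phosphoglycerate mutase, had 8.09, 2.09 and 0.525 kb. No gene of this list was at least 2-fold higher in either EPSC. For H3K4me1, 1 of 15 was at least 2-fold lower in D-EPSCs and 2 of 15 in L-EPSCs.

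Of 5 enzymes that set the level of fructose bisphosphates, 4 were compared and 3 were lower in each EPSC, with medians of -1.84 and -3.85. Pfkfb4 had 10.5 kb in ESCs against 1.17 kb for D-EPSCs and 0.339 kb for L-EPSCs, and Tigar (annotated as 9630033F20Rik), a phosphatase that opposes glycolysis, had 8.35 kb, 2.19 kb and 0. Pfkfb3 had 2.23, 0.665 and 0.332 kb. Of 12 genes of pyruvate and lactate handling, 8 were compared and 4 were lower in each EPSC, with medians of -0.95 and -1.32. The monocarboxylate transporters, which export lactate, were among them: Slc16a3 had 6.74 kb in ESCs and none in either EPSC, and Slc16a1 had 5.03, 1.81 and 1.45 kb. Ldhc, whose start lies in the Ldha window, had 2.97 kb in ESCs and none in the EPSCs. The transporters Slc2a2 and Slc2a4 had no H3K27ac in any list.

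Of 17 TCA cycle enzymes, which act downstream of pyruvate dehydrogenase, 14 were compared, and 7 were lower in D-EPSCs and 9 in L-EPSCs, with medians of -1.02 and -1.17. Idh2 had 21.4 kb in ESCs against 8.62 kb for D-EPSCs and 8.29 kb for L-EPSCs, Cs had 10.96, 4.23 and 4.66 kb, Sdhb had 10.5, 3.17 and 1.47 kb, and Suclg2 had 6.89, 2.69 and 2.92 kb. The shares of the other glycolytic enzymes lay above the 61.0% and 79.0% of all genes, and those of the TCA cycle enzymes and of the pyruvate and lactate genes lay below them. The share of the fructose bisphosphate enzymes lay above the first and below the second. The lists are small and no test of the difference was made.

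The genes whose 6 values (3 states and 2 marks) were most like those of Hk2, by Euclidean distance over log2(covered kb + 1), were Ak4 (0.43), Ahnak (0.48), Mapt (0.49), Dlgap3 (0.52) and Epb4.1l1 (0.62). Ak4, a mitochondrial adenylate kinase, had 30.8 kb of H3K27ac in ESCs but 6.72 kb in D-EPSCs, while L-EPSCs had 14.4 kb. No other member was as near to Hk2, the nearest being Slc2a1 (1.61) and Hk1 (2.07).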

How the data were processed

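The deposited files were 6 BED lists of broad peaks, 1 per mark and state. Reads were aligned by the authors to mm9, and MACS2 was run by them in broad mode with the input as control. The submitters' processing notes also name FastQC 0.10.1, Trim Galore 0.6.3, Bowtie2 2.3.5 and SAMtools 1.10. The deposited values are peak start and end positions, with no count or score. The thresholds, and whether replicates were pooled, are not given in the sources used here, and both affect list length.

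From these, covered bases were summed in each gene's window (GENCODE M1, 10 kb flanks). Genes with at least 1 kb in either list of a pair were compared, and 2-fold or more was called lower or higher. Peaks of a mark that overlapped or touched were joined into regions. Positions were checked against NCBIM37 chromosome lengths, with 0 peaks past an end. The code was tested on simulated data. Members, lists and comparisons were chosen with earlier results of these data known. Named genes were the members, up to 4 genes per list lower or higher in both EPSCs, taken by ESC coverage, and the 5 nearest to Hk2, and Slc2a2 and Slc2a4 were named after their values were seen. One gene that the rule names is not reported here. Of the 53 pathway genes, 4 were found through older symbols. RefSeq start sites and trimmed-list shares of all genes were added after seeing the data. Python 3.11.15, numpy 2.4.6 and matplotlib 3.10.9 were used.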

Additional observations from a re-analysis of the deposited data

Results flagged for a closer look

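H3K4me1 moved in opposite directions in the EPSC states at 3 members. On the log2 scale Pdk1 coverage relative to ESCs was 0.41 (D-EPSC) and -0.33 (L-EPSC), a difference of 0.73. For Aldoa the values were 0.06 and -0.38, a difference of 0.44, and for Slc2a1 0.05 and -0.25, a difference of 0.30. The opposite directions did not hold under every way of reading coverage. Aldoa was at 0.80 and 1.08 without flanks and at -0.12 and -0.63 with 25 kb flanks. By number of peaks Aldoa was at 0 in both EPSCs, Pdk1 at 0 and 0.36, and Slc2a1 at -0.32 and 0. With 1 list per state the differences were not tested, and both ratios use the same ESC list.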

How the results depend on the processing

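At least 2-fold lower H3K27ac in D-EPSCs was called at 5 members. It was called at 8 with 25 kb flanks, with Aldoa, Eno1 and Slc2a1 added, and at 3 with lists of equal covered bases. In L-EPSCs it was called at 9, and at 2 with equal covered bases. For H3K4me1 the count in D-EPSCs went from 0 to 2 at 1.5-fold, and in L-EPSCs from 1 to 2 at 1.5-fold and to 0 by number of peaks. The Hk2 H3K27ac log2 ratio in D-EPSCs was -2.12 with 25 kb flanks, -1.43 with equal covered bases and -1.68 by number of peaks, against -2.74. In L-EPSCs it turned to 0.15 with equal covered bases, against -1.24. Under the same setting Slc2a1 turned to 0.039, and Ldha H3K4me1 in L-EPSCs turned to 0.22 by number of peaks. H3K4me1 start-site peaks in ESCs fell to 5 members within 500 bp, against 9. Beyond these 11 values, 71 recomputed values of the main results stayed within 1.5 times. For single genes 267 did. Of 312 recomputed log2 ratios of single members, 22 changed sign. These were 9 of H3K4me1 by number of peaks (among them Hk2, at 0.51 in D-EPSCs and 0.89 in L-EPSCs), 3 of H3K4me1 without flanks, 2 with 25 kb flanks and 2 with equal covered bases, and 5 of H3K27ac with equal covered bases and 1 with lists of equal length (Pdk1 in D-EPSCs, 0.23). Equal covered bases left no ESC peak at Hk1, Pfkp and Aldoa and no D-EPSC peak at Ldha, so these gave no ratio. The causes were not tested. No paired analysis was possible because each mark and state has 1 peak list, and for the same reason no replicate could be left out. Read depth, which limits what a list can hold, is unknown.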
